A study of Mus musculus with 2 samples.

Results

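The nuclear genes of oxidative phosphorylation were described in CD45+ cells of the mouse heart. Genes were taken by symbol, namely Nduf genes of the a, b, c, s and v series for complex I, Sdha to Sdhd for complex II, Uqcr genes for complex III, Cox4 to Cox8 genes for complex IV and Atp5 genes for complex V, and were kept at 5 or more CPM, the share of all reads scaled to 1000000, in the summed reads of all cells. Of 97 genes with such a symbol, 81 were kept, out of 27809 genes in the matrix and 10967 genes at the same limit. The members were thus selected on their overall level, and on no difference between groups or cell classes. A gene near the limit can still pass it through the cells where it is high.

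Leukocytes of male C57BL/6N hearts were sequenced 1 week after sham surgery or transverse aortic constriction (TAC), which overloads the left ventricle with pressure, to ask how T cells act on cardiac macrophages. The groups were WT sham, CD3e-/- sham, WT TAC, CD3e-/- TAC, in which the germline lack of CD3e leaves the mice without T cells, and TAC in WT mice that received an antibody against CD8, labelled CD8-depleted TAC. Lists of 5 values follow this order. A hashtag marked the group of each cell in 1 pooled library, which gives 1 sample a group, and the number of hearts in each is not given in the sources used here.

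Oxidative phosphorylation takes place at the inner mitochondrial membrane. Complexes I and II feed electrons from NADH and succinate into ubiquinone, complex III passes them to cytochrome c, complex IV reduces oxygen, and complex V, the ATP synthase, uses the proton gradient so built. Complexes I, III, IV and V are made from nuclear and mitochondrial genes together, while complex II is all nuclear. Tissue macrophages are known to lean on respiration, and monocytes called into inflamed tissue and resting B cells differ from them in metabolism.

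The 5 groups held 1000, 835, 1615, 919 and 894 kept cells with 91899777 to 208758777 reads, with median depths per cell of 75442, 78372, 98869, 117788 and 98471. Cd3g, a chain of the T cell receptor complex, had 45.6, 0.555, 17.5, 0.0661 and 22.5 CPM. Cd3e reads were left in the CD3e-/- groups, at 3.73 and 5.64 CPM against 17.8 CPM in WT sham. Cd8a was read in 9, 16 and 8 cells of WT sham, WT TAC and the group labelled CD8-depleted TAC, or 0.900%, 0.991% and 0.895%. So few cells can neither show nor exclude a loss of CD8+ T cells. The paper counted these cells in the heart by flow cytometry, which the reads here do not replace.

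Cells were sorted into 6 classes by the reads of gate genes, none of which is a member. The Cd79a class (447 cells) had Cd79a, a chain of the B cell receptor, without Csf1r. Cells with Csf1r, the M-CSF receptor, and Lyz2, a lysozyme, but without Cd79a were parted into a Lyve1 class (192 cells), a Cd209a class (144), a Ly6c2 class (521), a Ccr2 class (1437) and a Ccr2-low class (1266). Most markers were highest in the class they were listed for: Folr2, Cd163, Timd4 and F13a1 of resident macrophages were highest in the Lyve1 class, Plac8, Chil3 and Hp of monocytes in the Ly6c2 class, Flt3 and Klrd1 of dendritic cells in the Cd209a class and Ms4a1 and Cd79b of B cells in the Cd79a class. No gate took in 1243 kept cells, and 13 passed more than 1 of the Ly6c2, Lyve1 and Cd209a gates. Differences between classes were tested on 28 sums of reads, 1 for each class and group with 20 or more cells, by the edgeR quasi-likelihood test with the group as a block, so that the p-values measure the spread between these sums. CD3e-/- TAC gave no sum for the Lyve1 class (14 cells) and the Cd209a class (9 cells).

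The 81 members were 38 of complex I, 4 of complex II, 8 of complex III, 14 of complex IV, among them Ndufa4, whose protein is a subunit of complex IV in spite of its name, and 17 of complex V. Just inside the limit were Ndufa12-ps at 6.78 CPM and Cox6b2 at 7.12 CPM, followed by Cox7c-ps1 at 17.7 CPM. The 16 genes under it were 9 with a pseudogene symbol, of which Atp5l2-ps came closest at 3.98 CPM, and 7 others. These others were Cox4i2, Cox6a2, Cox6c2, Cox7a1, Cox8b, Ndufa4l2 and Ndufs6b. Among the members, Ndufa12-ps and Cox7c-ps1 have a pseudogene symbol and Ndufb4c is a copy of Ndufb4, so that reads may have been split between near-identical genes and their values are uncertain. Ndufb1-ps is listed as Ndufb1 by RefSeq, a small subunit of complex I.

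The members together took the largest shares of the reads in the Cd209a and Ly6c2 classes and the smallest in the Cd79a class. The summed level was 12453 ± 619 CPM (SD, n = 4 groups) in the Cd209a class, 12283 ± 273 CPM (n = 5) in the Ly6c2 class and 11892 ± 344 CPM (n = 5) in the Ccr2 class. It was 10473 ± 614 CPM (n = 4) in the Lyve1 class, 10015 ± 618 CPM (n = 5) in the Ccr2-low class and 8839 ± 415 CPM (n = 5) in the Cd79a class. The Cd79a class was below every myeloid class in each group compared, and the Cd209a and Ly6c2 classes, which were above the Lyve1 class in 4 of 4 groups, had no order between themselves (Ly6c2 class higher in 2 of 4). The Ccr2-low class lay below the Lyve1 class in 4 of 4 groups, while the ranges of the 2 classes overlapped. These levels are shares of the reads, so fewer transcripts of these genes and more transcripts of others cannot be told apart.

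**Figure D1:**
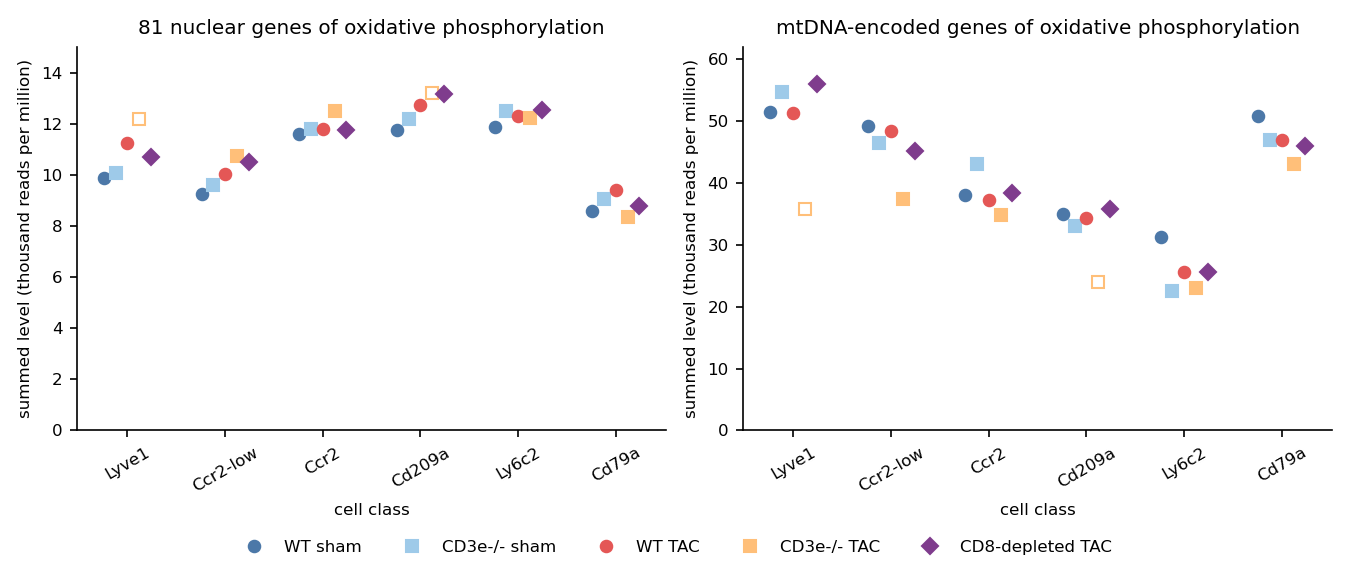
Summed level, in units of 1000 CPM, of the 81 nuclear members (left) and the 13 mtDNA-encoded subunits (right) in each cell class, 1 point for each group; open points are sums of fewer than 20 cells, which entered no test. The nuclear members run from 8337 CPM to 13142 CPM over the filled points with the Cd79a class lowest, and the mtDNA-encoded genes are lowest in the Ly6c2 class.

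In the Ly6c2 class, 17 of 81 members were higher and 2 lower than in the Lyve1 class (adjusted p under 0.05), where 15.1% of all genes tested were higher and 12.6% lower. The median log2 fold change was 0.20 over the members and 0.00 over all genes. Of the members that rose, 7 of 17 belonged to complex V, 3 of 8 to complex III, 3 of 14 to complex IV and 4 of 38 to complex I, while none of the 4 of complex II passed. Without WT sham the calls fell to 10, and without CD3e-/- sham to 12. Atp5md, Atp5pb, Cox8a, Ndufb1-ps and Uqcrq were called in all planned settings.

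The largest change in the Ly6c2 class was that of Ndufb1-ps. Its levels were 172.3, 162.5, 193.4, 190.7 and 203.4 CPM in the Ly6c2 class and 57.7, 53.7, 68.8 and 74.9 CPM in the 4 tested sums of the Lyve1 class. The groups did not overlap, and the Ccr2 class (109 to 136 CPM) lay between. The log2 fold change was 1.499 (SE 0.15, edgeR adjusted p = 1.13e-07). Atp5md, a small membrane subunit of the ATP synthase, had 110 to 172 CPM against 59.0 to 124 CPM, ranges that overlapped (log2 fold change 0.84, SE 0.16, edgeR adjusted p = 0.000328). Uqcrq, a subunit of complex III, had 177 to 228 CPM against 76.4 to 159 CPM without overlap (log2 fold change 0.77, SE 0.17). Ndufs4, an accessory subunit of complex I whose loss causes Leigh-like disease in mice, had 81.5, 73.9, 87.3, 75.1 and 75.5 CPM in the Ly6c2 class. In the Lyve1, Ccr2-low, Ccr2 and Cd209a classes its levels were 34.1 to 60.0 CPM, all below the Ly6c2 class, and its log2 fold change to the Lyve1 class was 0.73 (SE 0.24, edgeR adjusted p = 0.0248). Uqcrfs1, the Rieske iron-sulfur protein of complex III, had 120 to 142 CPM against 49.3 to 118 CPM, again apart (log2 fold change 0.71, SE 0.19).

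A pair of subunits of complex I went the other way, and these were the only members lower in the Ly6c2 class. Ndufa5 had 20.7 to 33.7 CPM in the Ly6c2 class and 41.8 to 60.2 CPM in the Lyve1 class (log2 fold change -0.91, SE 0.27, edgeR adjusted p = 0.0138). Ndufb11 had 68.0 to 95.7 CPM against 99.3 to 146 CPM (log2 fold change -0.56, SE 0.14, edgeR adjusted p = 0.00469). The ranges of both genes were apart, and neither call held in all planned settings.

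In the Ccr2 class only 4 members were higher than in the Lyve1 class and none lower, beside 8.15% and 4.38% of all genes, so that the share of members called was below the background. Ndufb1-ps (log2 fold change 0.86), Atp5md (0.59), Ndufa6 (0.57) and Cox8a (0.44) were the 4 genes. Cox8a, the ubiquitous isoform of the smallest subunit of complex IV, had 311 to 332 CPM in the 5 sums of the Ccr2 class and 218 to 244 CPM in the Lyve1 class without overlap (SE 0.10, edgeR adjusted p = 0.00453). It had 323 to 352 CPM in the Ly6c2 class and 302 to 352 CPM in the Cd209a class.

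In the Cd209a class 20 members were higher and 1 lower than in the Lyve1 class, beside 13% and 10.4% of all genes, with a median of 0.27 over the members and -0.01 over all genes. They were 8 of 17 members of complex V, 5 of 14 of complex IV, 3 of 8 of complex III and 4 of 38 of complex I. Without the group labelled CD8-depleted TAC the calls fell to 10. Ndufa6, a subunit of complex I of the LYR family, had 250.1, 339, 318 and 205 CPM in the Cd209a class and 107 to 154 CPM in the Lyve1 class (log2 fold change 1.12, SE 0.15, edgeR adjusted p = 7.1e-06). Behind it came Ndufb1-ps (log2 fold change 1.02), Uqcrfs1 (0.84), Atp5pb of the stator stalk of the ATP synthase (0.77) and Ndufv2 (0.76), which carries an iron-sulfur cluster of complex I. Ndufs5 was the only member lower, at 40.4, 41.2, 44.2 and 46.6 CPM against 54.9 to 102 CPM (log2 fold change -0.75, SE 0.18, edgeR adjusted p = 0.00397).

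The Cd79a class showed the broadest difference. Against the mean of the 5 myeloid classes, 58 of 81 members were lower and none higher, where 26.7% of all genes tested were lower and 25.2% higher. The median log2 fold change was -0.52 over the members and 0.01 over all genes, and 77 of 81 had a negative value. Members of each complex were lower: 24 of 38 of complex I, 3 of 4 of complex II, 5 of 8 of complex III, 12 of 14 of complex IV and 14 of 17 of complex V. Of the 58 members, 44 were called in all planned settings.

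Among the members lowest in the Cd79a class were subunits of complexes II and III. Uqcr11 had 63.0, 47.1, 55.0, 39.7 and 49.97 CPM in the Cd79a class and 75.6 to 155 CPM in the tested sums of the myeloid classes (log2 fold change -1.13, SE 0.15, edgeR adjusted p = 8.22e-07). Uqcrb had 93.0 to 110 CPM against 130 to 242 CPM (log2 fold change -1.0, SE 0.11). Sdhd, a membrane anchor of succinate dehydrogenase, had 55.6, 61.3, 56.0, 28.6 and 39.3 CPM against 62.8 to 153 CPM (log2 fold change -1.12, SE 0.18, edgeR adjusted p = 1.25e-05). For these 3 genes every sum of the Cd79a class was below every tested myeloid sum. Sdhc, the other anchor, had a log2 fold change of -1.06 (SE 0.19), and Uqcrq of -1.01 (SE 0.13). Cox6b2 had the lowest fitted value (-3.08, SE 0.75), which rested on 27 reads in 8 cells of the Cd79a class, 55.6% of them in 1 cell.

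**Figure D2:**
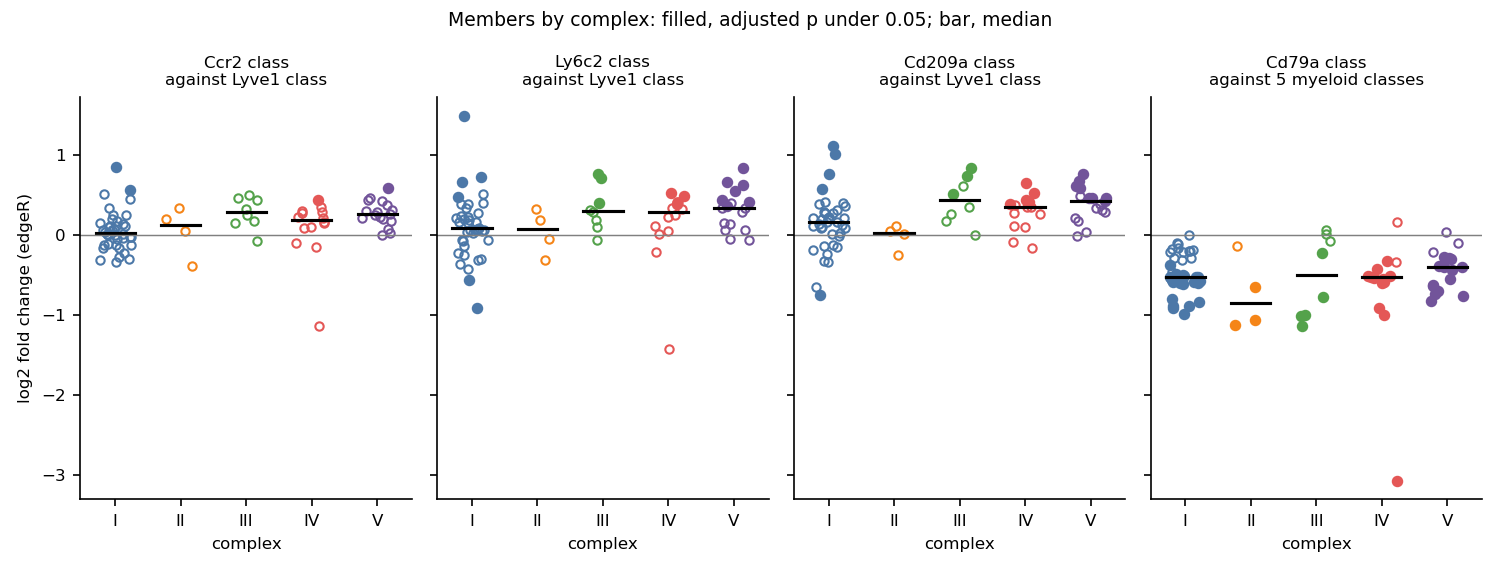
Log2 fold change (edgeR) of each of the 81 members in 4 comparisons of cell classes, by complex I to V; filled points have an adjusted p under 0.05 and bars are medians. In the Cd79a class 58 points are filled and all lie below 0, while in the Ly6c2 and Cd209a classes the medians of complexes III, IV and V lie above that of complex I.

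**Figure D3:**
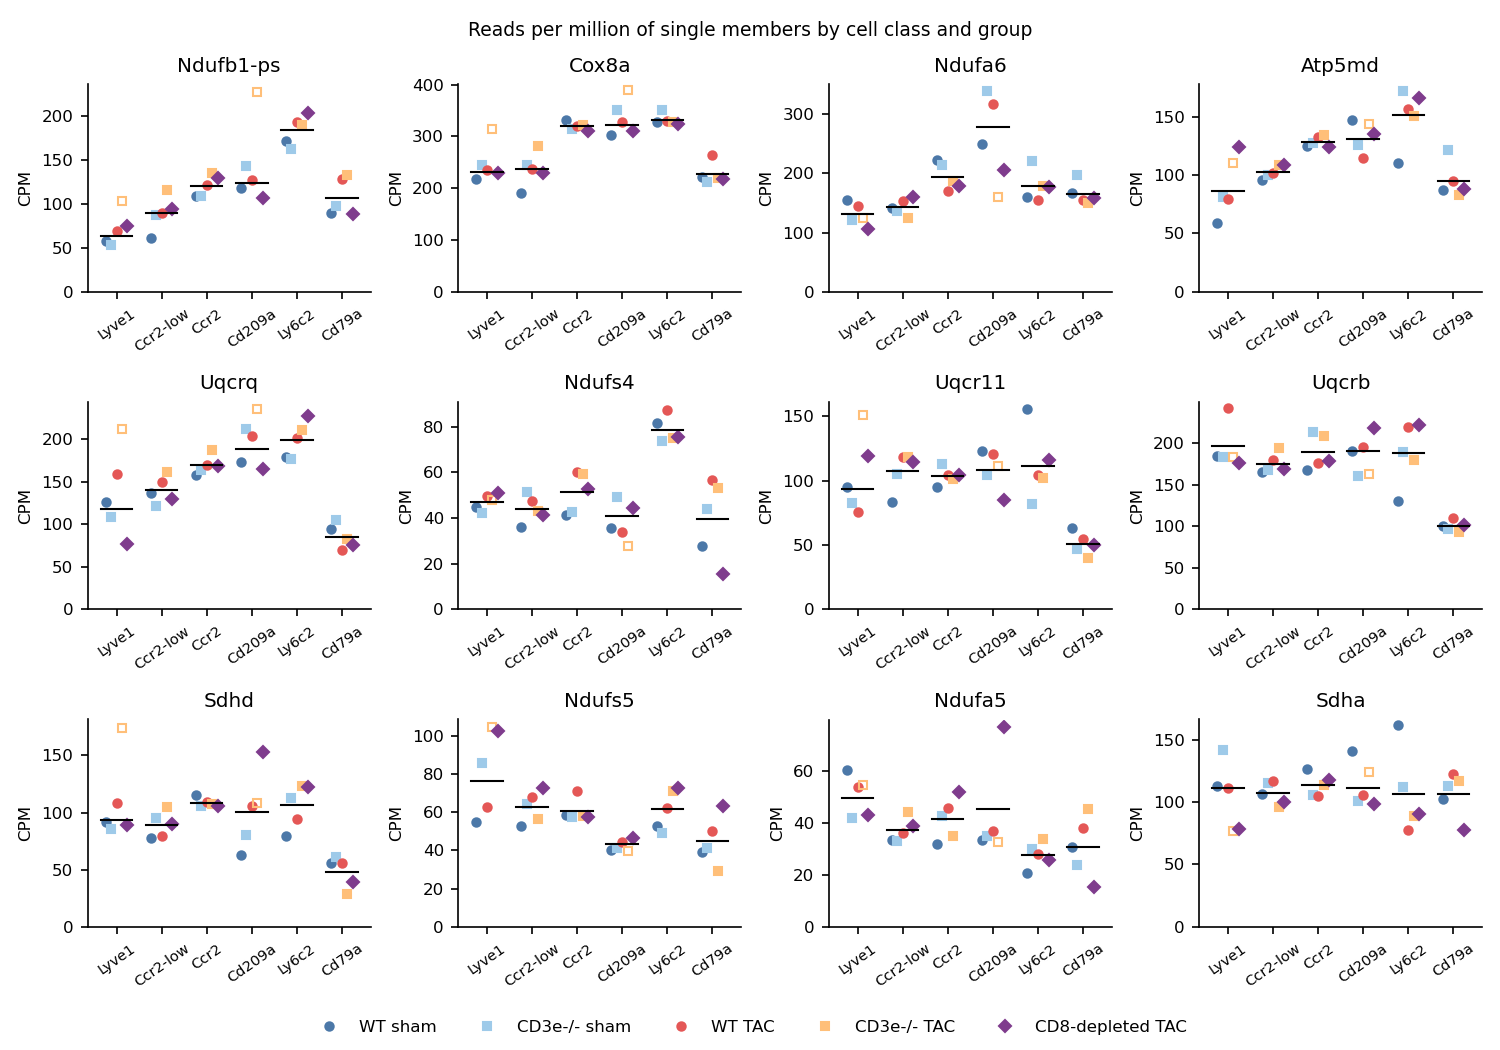
Level in CPM of 12 members in each cell class, 1 point for each group, bars for the mean over groups; open points are sums of fewer than 20 cells, which are outside the mean. Uqcr11, Uqcrb and Sdhd are lowest in the Cd79a class, Ndufs4 is highest in the Ly6c2 class and Sdha is at a like level in all classes.

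Several catalytic and core subunits, named for their roles, passed no test between the myeloid classes. Ndufs1 and Ndufv1, core subunits of complex I, Sdha and Sdhb, the catalytic subunits of complex II, and Atp5a1 and Atp5b, which form the head of the ATP synthase, passed the test in none of the 3 comparisons with the Lyve1 class. Their log2 fold changes there ran from -0.32 (Ndufs1 in the Cd209a class, SE 0.39) to 0.35 (Sdhb in the Ccr2 class, SE 0.16). Uqcrc1, a core protein of complex III, rose in the Cd209a class (0.52, edgeR adjusted p = 0.0036), as did Cox4i1 (0.40, edgeR adjusted p = 0.0354), while Uqcrfs1 rose in both the Ly6c2 and the Cd209a class and Ndufv2 in the Cd209a class, as given above. In the Cd79a class Ndufv1 (-0.59), Sdhb (-0.64), Uqcrc1 (-0.23), Cox4i1 (-0.53), Cox5a (-1.0) and Atp5b (-0.29) fell. Sdha had a log2 fold change of -0.13 in the Cd79a class (SE 0.13, edgeR adjusted p = 0.415), Atp5a1 of -0.21 (SE 0.10, edgeR adjusted p = 0.0709) and Uqcrfs1 of -0.07 (SE 0.14). The difference between core and other subunits was not tested.

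Of the isoforms that part tissues, the cells held the ubiquitous forms, and those known from heart and skeletal muscle were near 0. Cox6a2, the muscle form of subunit VIa, had 1710 reads in 167 of 5263 cells, 2.67 CPM with an exact 95% Poisson interval of 2.54 to 2.79, beside 4245 cells with reads of Cox6a1. It was highest in the Ccr2-low class, at 6.52 CPM (6.09 to 6.98), and had no read in the Cd79a class, where 3 reads, the limit taken for a count of 0, would be 0.112 CPM. Cox7a1 had 2.67 CPM, Cox8b 0.416 CPM and Cox4i2, a form of subunit IV known from lung, 0.987 CPM. Ndufa4l2 had 2.51 CPM, of which 1 cell held 24.9% of the reads. Summed markers of cardiomyocytes (10 genes) had 42.8 to 59.2 CPM over all cells, with the highest values in the Ccr2-low class (66.5 to 155 CPM) and in the CD3e-/- sham sum of the Lyve1 class (176 CPM). In the Cd79a class they had 1.56 to 44.4 CPM, with 1 to 7 of the 10 at 0, and their part in the muscle isoforms was not tested. Intervals and limits cover counting error only, since reads of 1 molecule are not independent.

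Atp5g1, Atp5g2 and Atp5g3 encode the same mature c subunit of the ATP synthase. In the Cd79a class Atp5g1 was lower (log2 fold change -0.75, SE 0.14, edgeR adjusted p = 0.000114), as was Atp5g2 (-0.27, SE 0.10, edgeR adjusted p = 0.0263), whereas Atp5g3 had -0.09 (SE 0.10, edgeR adjusted p = 0.451). In the Cd209a class Atp5g3 was higher (0.62, SE 0.14, edgeR adjusted p = 0.00226) and Atp5g2 was too (0.46, SE 0.14, edgeR adjusted p = 0.0171). Cox7a2l was higher in the Cd209a class (0.66, SE 0.19, edgeR adjusted p = 0.014). It had 0.17 (SE 0.13) in the Cd79a class, where Cox7a2 was lower (-0.55, SE 0.15, edgeR adjusted p = 0.00313). The differences between these genes were not tested.

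In the 4 tested comparisons of classes the subunits encoded by mitochondrial DNA ran against the nuclear members. All 13 were lower in the Ly6c2 class than in the Lyve1 class, from -1.45 (mt-Nd6) to -0.86 (mt-Co1) on the log2 scale, and 12 of 13 were lower in the Ccr2 class and in the Cd209a class, all but mt-Nd6. Cells of the Cd79a class had 8 of 13 higher than the mean of the 5 myeloid classes and none lower, where 25.2% of all genes were higher. This did not hold against each myeloid class. Both the Cd79a class and the Ccr2-low class were above the Lyve1 class in 0 of 4 groups, for the mtDNA-encoded subunits and for the members. The reads of the 13 genes were 4.57 to 5.43 times those of the 81 members in the Lyve1 class, 1.80 to 2.64 times in the Ly6c2 class and 4.98 to 5.91 times in the Cd79a class. Over the 28 sums the nuclear and mitochondrial levels had a Pearson's r of -0.73, given as a description, since the sums share classes and both levels share 1 total. The mitochondrial share of the reads is also a measure of damaged cells, and cells above a share of 0.4 had been left out.

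Of 10 carriers and partners of the chain that were tested, 3 were higher in each comparison with the Lyve1 class, where 15.1%, 8.15% and 13% of all genes were higher in the Ly6c2, Ccr2 and Cd209a classes. Cycs, which encodes cytochrome c (log2 fold change 1.69), Slc25a5, an ADP/ATP carrier (1.10), and Slc25a3, the phosphate carrier (0.68), were the 3 genes in the Ly6c2 class, and the same 3 passed in the Ccr2 and Cd209a classes. Slc25a4, the ADP/ATP carrier of heart and muscle (-0.69), and Atpif1, the inhibitor of the ATP synthase (-0.87), were lower in the Ly6c2 class. There 12.6% of all genes were lower. Of the 10, 5 were lower in the Cd79a class and Dhodh was higher, where 26.7% of all genes were lower and 25.2% higher. Of 40 assembly factors, 3 were higher and 1 lower in the Ly6c2 class, with Cox17, a copper chaperone, highest among those called (0.81), and 3 were higher and 8 lower in the Cd79a class. Of 13 enzymes of the TCA cycle, 1 was higher and 1 lower in the Ly6c2 class, and 3 were higher and none lower in the Cd79a class. For the assembly factors and these enzymes each of these counts was below the share of all genes. In the Cd209a class 3 of the 13 enzymes were higher and none lower, where 13% of all genes were higher and 10.4% lower. Of the 40 assembly factors, 2 were higher and 1 lower there. In the Ccr2 class none of either list passed. No regulator of mitochondrial biogenesis (10 tested) passed in the comparisons with the Lyve1 class. Against the myeloid classes Tfam (1.22), Nrf1 (0.57), Yy1 (0.36) and Myc (2.31) were higher in the Cd79a class. Ribosomal proteins moved too: 66, 75 and 82 of 85 cytosolic ones were higher in the Ly6c2, Ccr2 and Cd209a classes and 79 of 85 in the Cd79a class.

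Depth moved with the level of the members. The median reads per cell were 91640.5 in the Lyve1 class, 74449.5 in the Ccr2-low class, 110821 in the Ccr2 class, 157457 in the Cd209a class, 123260 in the Ly6c2 class and 47214 in the Cd79a class. Within each class the cells above its median depth had the higher summed level of members, for example 10540 against 8510 CPM in the Ccr2-low class and 9063 against 8474 CPM in the Cd79a class. With cells of 40000 to 120000 reads only, and sums of 10 or more cells, the calls were 7, 0 and 7 in the Ly6c2, Ccr2 and Cd209a classes against the Lyve1 class and 29 in the Cd79a class, all 29 lower. The share of all genes called at this setting is not given here, so these counts have no background beside them. The sums of the Cd209a class held only 13, 10 and 11 cells. The median log2 fold change of the members was then 0.23, 0.05, 0.16 and -0.43, beside -0.04, 0.06, -0.15 and 0.08 over all genes.

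After TAC the members lay slightly above sham in both genotypes. The summed level over all kept cells was 10633, 10982, 11662, 12022 and 11713 CPM, with the 3 TAC groups above both sham groups. The median log2 ratio of the members was 0.15 for WT TAC against WT sham and 0.13 for CD3e-/- TAC against CD3e-/- sham, beside 0.01 and 0.02 over all genes. Of the 81 members, 64 (79.0%) were above 0 in both genotypes, beside 36.4% of all genes, and these pairs of groups share no sample. In 51 of 81 members all 3 TAC groups were above both sham groups, where 26.4% of all genes were, and in 2 members, Sdha and Cox6b2, they were all below, where 21.6% of all genes were. These groups had 1 sample each, so no test was made.

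Cox6b2 apart, no member passed 1.5-fold between TAC and sham of 1 genotype. No member was 1.5-fold higher in WT TAC than in WT sham, where 4.91% of all genes were, and Cox6b2 was the only one 1.5-fold lower (log2 ratio -0.95, 11.0 against 5.19 CPM), where 6.64% of all genes were. No member passed 1.5-fold in CD3e-/- TAC against CD3e-/- sham, where 7.16% of all genes were higher and 7.52% lower. The typical counting interval of a member's ratio was 0.03 to either side on the log2 scale in WT and 0.04 in CD3e-/-.

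**Figure D4:**
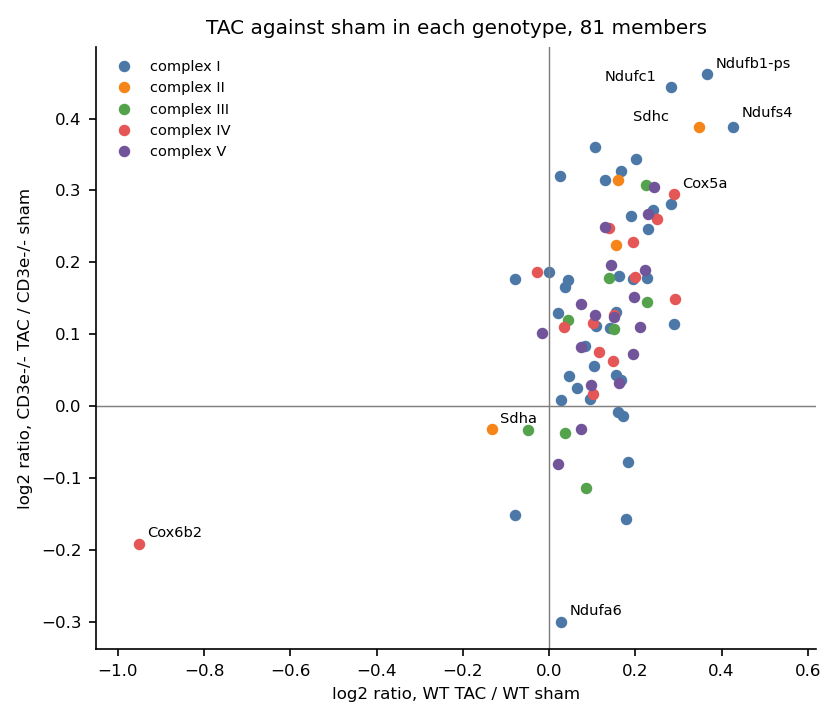
Log2 ratio of TAC to sham in WT mice (horizontal) and in CD3e-/- mice (vertical) for the 81 members, coloured by complex, from summed reads of all kept cells with 1 CPM added. Most points, 64 of 81, lie above 0 on both axes, and Cox6b2 stands apart at -0.95 in WT.

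Ndufs4, Ndufb1-ps and Sdhc had the 3 highest ratios in WT, and in CD3e-/- they were among the 4 highest with Ndufc1 (0.44). Ndufb1-ps had 96.6, 107, 125, 148 and 134 CPM in the 5 groups (log2 ratio 0.37 in WT and 0.46 in CD3e-/-). Ndufs4 had 44.6, 45.0, 60.3, 59.2 and 56.1 CPM (0.43 and 0.39), and Sdhc had 43.0, 42.6, 55.0, 56.1 and 55.3 CPM (0.35 and 0.39). For each of the 3 genes the TAC groups were all above both sham groups. At the other end were Sdha, with 117, 107, 106, 104 and 103 CPM (-0.13 in WT), and Ndufb10 (-0.08 in WT). In CD3e-/- they were Ndufa6 (-0.30), Cox6b2 (-0.19) and Ndufa9 (-0.16). Medians by complex were 0.15, 0.16, 0.11, 0.14 and 0.14 for complexes I to V in WT and 0.15, 0.27, 0.11, 0.14 and 0.12 in CD3e-/-. Over all cells the mtDNA-encoded subunits lay lower after TAC, with a median of -0.17 in WT and -0.40 in CD3e-/-. In WT their median was -0.072 with the 6 classes at equal weight, -0.0093 within the Ccr2-low class, -0.031 within the Ccr2 class and -0.34 within the Ly6c2 class. In CD3e-/- the same values were -0.33, -0.43, -0.36 and 0.069.

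The make-up of the cells changed together with the members. The Ly6c2 class, high in members, had 23 cells in WT sham and 155 in WT TAC, 34 in CD3e-/- sham and 167 in CD3e-/- TAC. The Ccr2 class had 179 and 545 cells in WT and 188 and 296 in CD3e-/-. Summed markers of B cells (5 genes), the class lowest in members, had 545, 683, 288, 362 and 371 CPM over all cells, and those of fibroblasts (3 genes) had 624, 562, 122, 224 and 308 CPM, both lower in every TAC group than in the sham groups. The part of these cells in the ratios of the members was not tested beyond the values within classes. With the 6 classes at equal weight, those of few cells included, the medians were 0.13 and 0.11, beside 0.03 and 0.04 over all genes, and 30 members had all TAC groups above both sham groups, beside 20.1% of all genes. Within the Ccr2-low class the medians were 0.13 and 0.16, beside 0.01 and 0.02 over all genes. Within the Ccr2 class they were 0.06 and 0.08, beside 0.07 and 0.08 over all genes, and within the Ly6c2 class 0.11 and 0.01, beside 0.15 and 0.09, so that the members did not stand above the other genes in these 2 classes. All TAC groups were above both sham groups for 17 of 81 members in the Ccr2 class, beside 24.2% of all genes. They were all below for 9 members, beside 12.2%. In the Ccr2-low class 29 members were above, beside 17.6%, and 3 below, beside 13.4%. The median of the Lyve1 class was 0.20 in WT, beside 0.00 over all genes, and that of the Cd79a class was 0.12 in WT and -0.06 in CD3e-/-.

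Cells of TAC hearts were deeper as well. With 4 bins of 40000 to 120000 reads per cell at equal weight, the medians were 0.17 in WT and 0.17 in CD3e-/-, beside 0.01 and 0.04 over all genes, and 45 of 81 members had all TAC groups above both sham groups, beside 20.9% of all genes. With the same bins within the Ccr2 class the medians were 0.14 and 0.23, beside 0.07 and 0.05 over all genes.

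**Figure D5:**
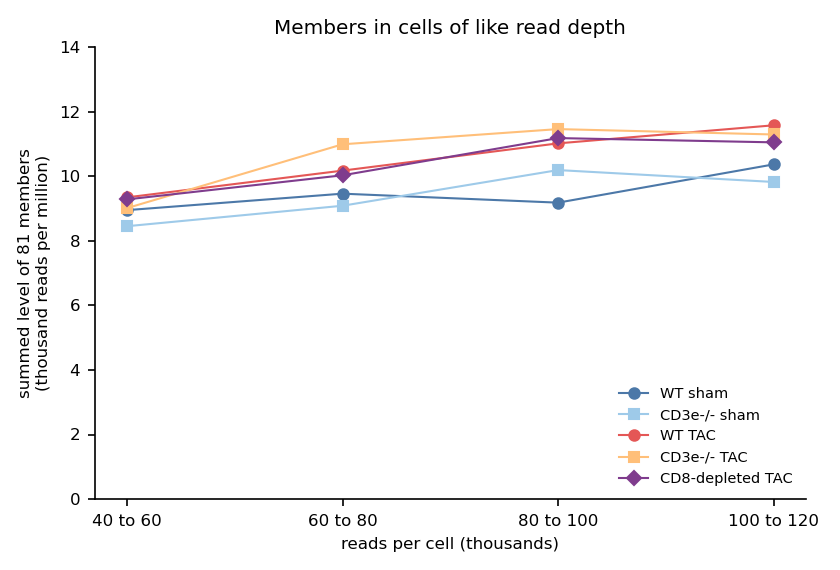
Summed level of the 81 members, in units of 1000 CPM, in cells of 4 bins of read depth for each group. In every group the level is higher in the last bin than in the first, without a steady rise in 4 of 5 groups, and within each bin the TAC groups lie above both sham groups, at 9011 to 11575 CPM against 8451 to 10364 CPM over the bins.

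Over all kept cells, the lack of T cells and the antibody against CD8 went with smaller differences. For CD3e-/- sham against WT sham the median over the members was 0.03, beside -0.04 over all genes, and for CD3e-/- TAC against WT TAC it was 0.04, beside -0.03. No member passed 1.5-fold in the sham pair, where 1.78% of all genes were higher and 4.10% lower, nor in the TAC pair, where 2.41% were higher and 2.82% lower. In the sham pair the highest ratios were those of Uqcrfs1 (0.26), Ndufs3 (0.22) and Ndufa6 (0.22), and the lowest those of Cox6b2 (-0.33), Ndufa10 (-0.30) and Uqcrc2 (-0.21). In the TAC pair Cox6b2 (0.43), Ndufb4c (0.27) and Ndufs8 (0.25) were highest and Ndufa9 (-0.20), Uqcrc2 (-0.20) and Ndufa6 (-0.11) lowest. Uqcrc2, a core protein of complex III, had 107, 92.0, 103, 89.8 and 102 CPM, and both CD3e-/- groups were below all 3 WT groups. Within the Cd79a class the median of the TAC pair was -0.20, beside -0.03 over all genes. It was 0.09 in the Ccr2-low class, 0.08 in the Ccr2 class and -0.02 in the Ly6c2 class, beside -0.02, -0.01 and -0.01. The median of the sham pair ran from -0.04 in the Lyve1 class to 0.11 in the Ly6c2 class, beside -0.08 and 0.04. These differences were not tested.

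Over all kept cells, the group labelled CD8-depleted TAC hardly differed from WT TAC in the members. The median was 0.00 over the members and 0.00 over all genes, and 40 of 81 members were above 0. No member passed 1.5-fold, where 2.01% of all genes were higher and 0.976% lower. Ndufs3, a core subunit of complex I, had the highest ratio (0.33, 70.2 against 55.8 CPM), ahead of Ndufb2 (0.27) and Ndufv1 (0.24). Ndufa8 (-0.20), Ndufs7 (-0.16) and Ndufc1 (-0.14) had the lowest. Within classes the median ran from -0.095 in the Cd79a class, beside -0.01 over all genes, to 0.05 in the Ccr2-low class, beside 0.03.

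Promoters from RefSeq on GRCm38.p6, 250 bases before to 50 bases after the start, were matched for 66 members and searched for 4 short motifs of factors known for nuclear respiratory genes. The search was on both strands for NRF1 (GCGCATGCG), GABPA (CCGGAAGT), YY1 (AAGATGGCG) and ESRRA (TCAAGGTCA). The NRF1 letters overlap their own reverse complement, and a gene was counted once. Members without a matched promoter included Atp5a1, Atp5mpl, Cox4i1, Cox6c, Cox7c-ps1, Ndufa12-ps, Ndufa2, Ndufb4c, Ndufb9, Ndufs1, Sdhc, Uqcrb, Uqcrc2 and Uqcrq. The NRF1 letters were in 12.1% of the matched members, beside 4.44% of the promoters of all genes at 5 or more CPM, members included, and the YY1 letters in 10.6% beside 4.02%. The GABPA letters were in 7.58% beside 10.03%, and the ESRRA letters in 3.03%, which are Atp5g3 and Sdhd, beside 0.313%. Any of the 4 was in 21 of 66 members (31.8%), beside 17.6%. These matches are a description of the letters and not of binding.

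The windows below show the letters in members named above, with the motif or its reverse complement in capitals and 10 bases to each side, where the promoter reaches that far, on the strand of the gene. They were chosen because Cox8a, Ndufs4, Uqcr11 and Sdhd were among the members that differed between classes and Atp5g3 and Uqcrc1 were higher in the Cd209a class.
Cox8a, GABPA, chr19:7217605-7217632, minus strand: tttccgaaatACTTCCGGctcgggcgtc
Uqcr11, GABPA, chr10:80406870-80406897, minus strand: tctctcctccCCGGAAGTagatgtcaat
Ndufs4, YY1, chr13:114388045-114388069, minus strand: tgcctacaggAAGATGGCGgcggtc
Sdhd, ESRRA, chr9:50603800-50603823, minus strand: ggttgtagagTGACCTTGAgccct
Atp5g3, ESRRA, chr2:73911360-73911388, minus strand: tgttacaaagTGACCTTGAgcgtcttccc
Uqcrc1, NRF1, chr9:108936668-108936696, plus strand: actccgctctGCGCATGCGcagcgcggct
The motif began 6 bases before the start of Cox8a, 66 before that of Uqcr11 and 52 before that of Atp5g3. It began 35 bases after the start of Ndufs4, 36 after that of Sdhd and 30 after that of Uqcrc1. In the Cox8a promoter the GABPA letters stood at 2 places, and the window shows the first. The promoter of Uqcr11 was the only one with letters of 2 factors, GABPA and NRF1, and that of Ndufb1-ps, matched as Ndufb1, held none of the 4.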

How the data were processed

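The method was TAS-Seq with BD Rhapsody beads. The authors deposited unnormalized counts for each gene and barcode, whole numbers that are reads and not molecules, after they had selected barcodes and assigned hashtags. The hashtag library itself was not used here. The labels name cutadapt 2.10, Bowtie2 2.4.2 and GRCm38. Columns without a hashtag (8) and doublets called by the authors (40) were left out of 5363, while doublets within a group cannot be told by hashtags and were not sought. The limits for a cell were 500 genes at least and 0.4 of its reads from mitochondria at most (5263 kept).

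Gates were 500 CPM for Cd79a, Ly6c2 and Ccr2, 200 CPM for Csf1r, Lyve1 and Cd209a and 1000 CPM for Lyz2. Reads were summed per group and class, and 10967 genes were tested with edgeR 4.0.16 in R 4.3.3 (TMM, quasi-likelihood, Benjamini-Hochberg). Groups were compared by log2 ratios of CPM with 1 CPM added, without a test. Intervals are exact Poisson intervals of 95%. Python 3.11.15 was used for the rest. In simulated counts with 200 genes changed 2-fold for the Ly6c2 class against the Lyve1 class, 79% of changed genes were called. So were 17 unchanged genes. The simulated dispersion was 0.05 for every gene, and the classes had no other difference. Named genes were core subunits, tissue isoforms, the 5 called members of largest fold in each direction per class comparison, and the 3 highest and 3 lowest ratios per group comparison, and other genes of the figures and lists were named after their values were seen. The members, gates and lists were chosen with earlier results of these data known. Alternatives included DESeq2 1.42.0, other size factors, filters, gates and left-out groups. Protein sequences were not used here, and a few genes of the lists are not reported here.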

Additional observations from a re-analysis of the deposited data

Results flagged for a closer look

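Over the 4 or 5 sums of a class, 42 sets of summed levels (the members, each complex and the mtDNA-encoded subunits in 6 classes) were searched for a sum that stands apart by Dixon's 95% limit, which chance passes in about 1 of 20 sets. There were 4 such sums. CD3e-/- TAC stood apart in the Ccr2 class, where it was highest for the members (12490 CPM) and for complex IV (3340.2 CPM). It was lowest for complex III in the Cd79a class (854 CPM). WT sham was lowest for complex I in the Ly6c2 class (3205 CPM), with 23 cells. The groups differ in treatment, so these sums are not replicates of 1 condition.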

How the results depend on the processing

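Calls of members in the order Ly6c2, Ccr2 and Cd209a against Lyve1 and Cd79a against the myeloid classes were 19, 4, 21 and 58. Leaving out each group gave 10 to 20, 3 to 5, 10 to 21 and 50 to 57, beyond 1.5 times of the main count without WT sham (10) and without CD3e-/- sham (12) for Ly6c2 and without CD8-depleted TAC (10) for Cd209a. Without the replicate block of the groups they were 21, 5, 21 and 56, and with DESeq2 19, 4, 19 and 59. Also beyond it were 11 in the Ccr2 class without a filter on genes, 11 in the Ly6c2 class and 7 in the Cd209a class with doubled gates, where the Cd209a class kept 1 sum of 20 or more cells, and, chosen after seeing the data, 7, 0, 7 and 29 with cells of 40000 to 120000 reads, which has fewer cells per sum. The share of all genes called in these other settings is not given here. No called value of a named member reversed in the settings run. Medians of the group comparisons moved by more than the typical counting interval of 1 member's ratio in 3 cases. CD3e-/- TAC against sham was 0.20 as a mean over cells and 0.17 with bins of depth (added after seeing the data). CD3e-/- sham against WT sham was 0.090 in myeloid classes. The counting error of a median over the members was not computed, so smaller shifts need not lie within it. With a limit of 25% in place of 1.5-fold, 4, 7, 1, 1 and 1 members passed in the 5 group comparisons, in the order WT TAC, CD3e-/- TAC, CD3e-/- sham, CD3e-/- against WT TAC and CD8-depleted TAC. With 10 CPM added 0 passed 1.5-fold for WT TAC. The share of all genes that passed with the 25% limit or with 10 CPM added is not given here. In CD3e-/- sham against WT sham 1 member was 1.5-fold lower in myeloid classes, where 735 of all 10967 genes were. Bins of depth gave 2 members lower in that pair, beside 781 of all genes. They also gave 3 higher for CD3e-/- TAC against sham, beside 1140 of all genes. As a mean over cells, 1 member was lower in CD3e-/- sham against WT sham, beside 450 of all genes. Members with all TAC groups above both sham groups went from 51 to 30 with classes at equal weight, and were 17 within the Ccr2 class. The causes were not tested. The 1 sample of each group and the few cells of the Lyve1 and Cd209a classes limit the precision.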
